A study of Mus musculus with 12 samples.

Results

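Mitochondrial ribosomal protein genes, the nuclear genes that encode the proteins of the ribosome inside mitochondria, were examined in tibialis anterior (TA) muscles transfected with *FRAIL1*. Members were all genes of the count table whose NCBI Gene ID maps to a mouse symbol of the form Mrpl or Mrps followed by a number, without pseudogenes. This gave 78 of the 27179 genes listed, of which 77 were among the 15502 genes that passed the expression filter of edgeR and were tested. By their place in the ribosome 51 belong to the large and 26 to the small subunit. The remaining one, *Mrps36*, carries the name but is now known as a part of the 2-oxoglutarate dehydrogenase complex.

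The mitochondrial ribosome translates the mRNAs of the mitochondrial genome, which encode subunits of the respiratory chain and of ATP synthase. Its ribosomal RNAs are transcribed inside the organelle, whereas its proteins are encoded in the nucleus, made in the cytosol and imported, so that assembly draws on both genomes. Some of its proteins have counterparts in bacterial ribosomes, and others exist only in mitochondria. In skeletal muscle, a tissue rich in mitochondria, the respiratory chain depends on this translation.

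The muscles came from male wild-type C57BL/6N mice that were 6 to 8 weeks old on arrival. In each of 6 mice the TA of 1 leg received 10 μg of empty pcDNA3.1(+) plasmid by electroporation after hyaluronidase (6 Control muscles), and the contralateral TA received 10 μg of plasmid encoding human *FRAIL1*, a long noncoding RNA (6 *FRAIL1* muscles). Both were taken after 7 days, and poly(A)+ RNA of the whole muscle was sequenced. Plasmid enters only part of the fibers and both groups were electroporated, so each value is a sum over transfected fibers, other fibers and other cell types, in which fewer cells of a type and less RNA per cell cannot be told apart. *FRAIL1* is not among the mouse genes counted.

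Total counts were 45018389 to 59309210 in Control and 44848322 to 60527385 in *FRAIL1* muscles. Markers of fast fibers, the main fibers of this muscle, summed to 142654 to 162727 CPM in Control and 102804 to 151201 in *FRAIL1* muscles. Here CPM are counts scaled to the size of the library multiplied by its TMM factor. *FRAIL1* muscle 5 had the lowest share of counts on the mitochondrial genome, 6.58%. This share was 7.54% to 9.90% in the other *FRAIL1* and 9.12% to 11.4% in the Control muscles. *FRAIL1* muscle 5 also had the highest TMM factor, 1.19, against 0.965 to 1.07 in the other *FRAIL1* muscles. Of 7 markers of satellite cells and regenerating fibers 4 were higher in *FRAIL1* muscles and none lower, and their sum was 168 to 218 CPM in Control and 330 to 1558 in *FRAIL1* muscles. Of 8 fibro-adipogenic markers 2 were higher (1287 to 2440 against 2523 to 6655 CPM), of 7 slow-fiber markers 4 were higher (154 to 267 against 238 to 617 CPM), and of 6 endothelial markers 1 was lower (359 to 414 against 281 to 363 CPM). With the mouse as a block all 7 markers of satellite cells and regenerating fibers were higher, but none of the fibro-adipogenic ones, and 2 endothelial and 2 of 8 fast-fiber markers were lower. None of 10 macrophage markers passed without the block, although 8 had an unadjusted p below the threshold (256 to 400 against 317 to 806 CPM), and 6 were higher with the block. None of 6 Schwann cell markers passed either (82.2 to 145 against 68.9 to 106 CPM). The part of these cell types in the values below was not tested.

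In the promoters of these genes, sequences bound by factors that regulate nuclear genes of mitochondria can be looked for directly. RefSeq start sites (GRCm38.p6) were found for 69 of the 78 members, with 75 windows of 300 bases that run from 250 bases before to 50 bases after a start. The ETS-type motif CCGGAAG, bound by the GABPA subunit of nuclear respiratory factor 2, was present on either strand in 34.7% of the members' windows and in 8.86% of all 32851 windows. The full palindromic motif of nuclear respiratory factor 1 was present in 17.3% against 4.60%, its shorter form TGCGCA, which can overlap it, in 29.3% against 7.76%, and the YY1 motif AAGATGGC in 16.0% against 2.75%. The TATA motif TATAAA was present in 6.67% of the members' windows and 13.6% of all windows. Median GC content was 58.7% in the members' and 52.7% in all windows. The set of all windows covers 27025 genes and was not limited to protein-coding genes or to genes expressed in these muscles. A match describes letters in the window and not binding of the factor.

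Promoters of 3 members described below show these forms, as the 150 bases before the start, 5′ to 3′ on the strand of the gene, with motif matches in capitals. That of *Mrpl57* (chr14:57826089-57826238, plus strand) holds the motif of nuclear respiratory factor 1. That of *Mrps18a* (chr17:46110854-46111003, plus strand) holds its shorter form and the ETS-type motif. That of *Mrpl16* (chr19:11770265-11770414, plus strand) holds the TATA motif and none of the others. The same stretch of *Mrps30*, *Mrpl42*, *Mrps18b* and *Mrps18c*, also described below, holds no match and is not shown. The windows counted above are longer and can hold further matches. They hold the YY1 motif in *Mrpl42* and *Mrps18a*, and the ETS-type motif in *Mrps18b*, *Mrps18c* and *Mrpl57*. The window of *Mrps18b* also holds the shorter form of the motif of nuclear respiratory factor 1, and that of *Mrps30* holds no match.
Mrpl57: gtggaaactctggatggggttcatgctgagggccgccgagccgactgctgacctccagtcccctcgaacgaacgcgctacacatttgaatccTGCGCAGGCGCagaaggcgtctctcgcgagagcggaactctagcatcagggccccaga
Mrps18a: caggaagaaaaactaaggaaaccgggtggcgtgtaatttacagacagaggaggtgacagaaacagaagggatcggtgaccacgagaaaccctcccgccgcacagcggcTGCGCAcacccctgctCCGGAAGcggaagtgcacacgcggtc
Mrpl16: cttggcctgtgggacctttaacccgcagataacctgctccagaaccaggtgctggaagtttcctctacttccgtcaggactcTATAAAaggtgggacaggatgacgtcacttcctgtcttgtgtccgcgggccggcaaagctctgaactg

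Many members share a start region with a neighbor. In the GENCODE M21 annotation, 33 of 78 members (42.3%) had a protein-coding neighbor that starts on the opposite strand within 1000 bases of their own start, compared with 10.8% of 21992 protein-coding genes. *Mrpl46* of the large and *Mrps11* of the small subunit are such a pair, with starts 412 bases apart. They measured 22.4 ± 1.92 and 19.4 ± 1.04 CPM (SD, n = 6) in Control muscles, compared with 22.2 ± 1.43 and 18.7 ± 2.38 CPM (SD, n = 6) after *FRAIL1*. Exons of 33 members overlap those of another gene, 18 of them over more than 10% of their length. Also, 12 members share at least 100 bases, at 98% identity or more, with a transcript from elsewhere, called a copy here. Some of these stretches are short, such as the 127 bases that *Mrpl20* shares with *Mfsd4a*. Counts of genes with an overlap or a copy are less certain. The strand setting of the counting was not stated, and only uniquely mapped reads were counted.

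Mitochondrial ribosomal protein genes were expressed at moderate to high levels in Control muscles. Their median level was 33.6 CPM, with a range among tested members from 2.55 to 166 CPM, and no tested member had fewer than 87 counts in any muscle. Per kilobase of annotated exons the median was 13.97 CPM, compared with 2.41 over the 14373 tested genes with a length, and 74 of the 77 tested members were above that value. The highest per kilobase was *Mrps21*, the counterpart of bacterial S21 in the small subunit, with 100.03 CPM per kilobase. It was followed by *Mrpl2*, whose bacterial counterpart lies at the center that forms peptide bonds, with 75.4, *Mrps28* with 64.2, *Mrpl14* with 60.7 and *Mrpl18* with 58.8 CPM per kilobase.

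At the lower end were *Mrpl36* with 0.119, *Mrpl23*, the counterpart of L23 at the exit tunnel, with 0.521, and *Mrps17* with 0.971 CPM per kilobase. *Mrps35* and *Mrps33*, both found only in mitochondria, followed with 1.72 and 3.44 CPM per kilobase. *Mrpl36* was too low to be tested, with 0.0714 to 0.259 CPM in Control (median 0.137) and 0.0978 to 0.196 CPM in *FRAIL1* muscles (median 0.125). Lengths are those of all GENCODE exons of a gene joined, so that a gene with long rarely used exons has a lower value per kilobase. With exons counted only inside the RefSeq bounds of each gene, a choice made after seeing the data, *Mrps17* and *Mrps35* measured 2.38 and 2.67 CPM per kilobase and the order of the 5 lowest stayed. The highest were then *Mrps21* with 100.7, *Mrps34* with 76.3, *Mrpl2* with 75.9, *Mrpl51* with 73.0 and *Mrps28* with 69.6 CPM per kilobase. *Mrpl23* and *Mrps33* have near-identical copies, which can take uniquely mapped reads from them.

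**Figure D1:**
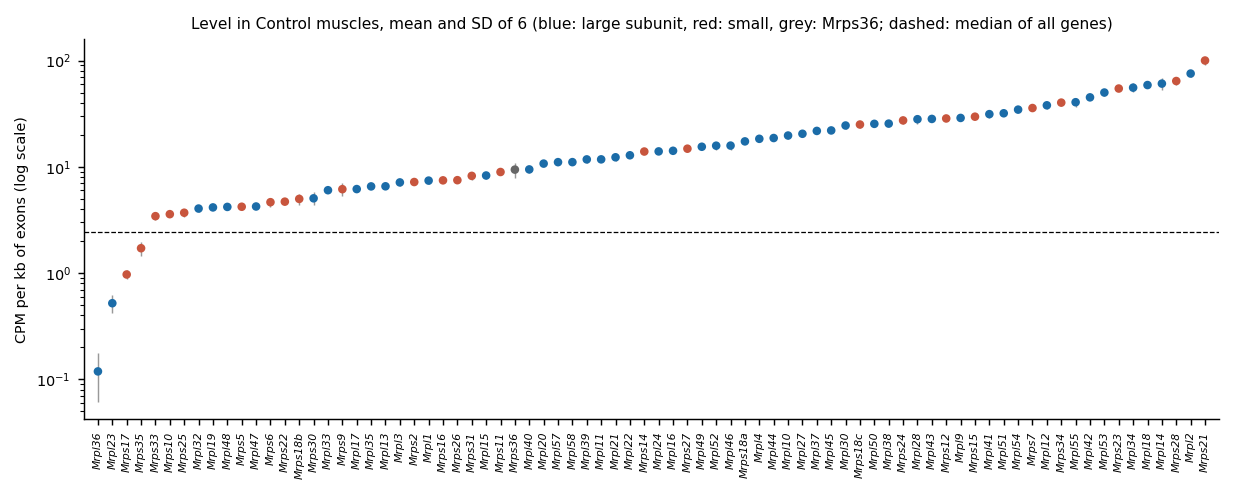
Level of each of the 78 genes in the 6 Control muscles in CPM per kilobase of exons on a log scale (points: mean, bars: SD), ordered from lowest to highest. Blue points are large-subunit genes, red points small-subunit genes and the grey point *Mrps36*, and the dashed line is the median of all tested genes with a length, 2.41, with *Mrpl36*, *Mrpl23*, *Mrps17* and *Mrps35* below it.

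To learn whether *FRAIL1* changed the expression of these genes, the 2 groups were tested against each other with the quasi-likelihood method of edgeR, and p-values were adjusted over all 15502 genes by Benjamini-Hochberg. One of 77 members was higher, *Mrps34*, and none was lower. Over all genes, 974 (6.28%) passed, 687 higher (4.43%) and 287 lower (1.85%). Without adjustment 9 members had a p below 0.05, 4 higher and 5 lower, against 27.7% of all genes. In no member were the groups free of overlap, compared with 3.12% of all genes that were higher and 1.77% that were lower in every *FRAIL1* than in every Control muscle. With the mouse as a block, 2 members passed, *Mrps34* higher and *Mrpl16* lower, when 14.1% of all genes did (7.48% higher and 6.62% lower).

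The differences in members were small and their errors were small as well. The median log2 fold change was -0.03 (quartiles -0.09 and 0.09, range -0.21 to 0.23), with 34 values above and 43 below 0, and the median over all genes was 0.01. For 75 members (97.4%) the log2 fold change was within 0.2 of 0, compared with 59.3% of all genes. The 95% interval of the fold change lay within 0.3 of 0 on the log2 scale for 63 members (81.8%), compared with 31.1% of all genes. The median standard error of the log2 fold change was 0.0636 in members and 0.114 over all genes, and the median SD of log2 CPM in a group was 0.0914 (Control) and 0.105 (*FRAIL1*) in members, against 0.173 and 0.211 over all genes.

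These values rest on TMM scaling, which sets most genes to no change. Scaled to library size alone, an alternative chosen after seeing the data, the median of all genes was 0.16 and that of members 0.11 on the log2 scale, so that the members' median was 0.04 below that of all genes with both scalings. With that scaling 19 members were called higher and none lower, and over all genes 2480 were called higher and 147 lower. As a share of unscaled counts, members took 0.290% to 0.316% in Control and 0.301% to 0.348% in *FRAIL1* muscles.

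**Figure D2:**
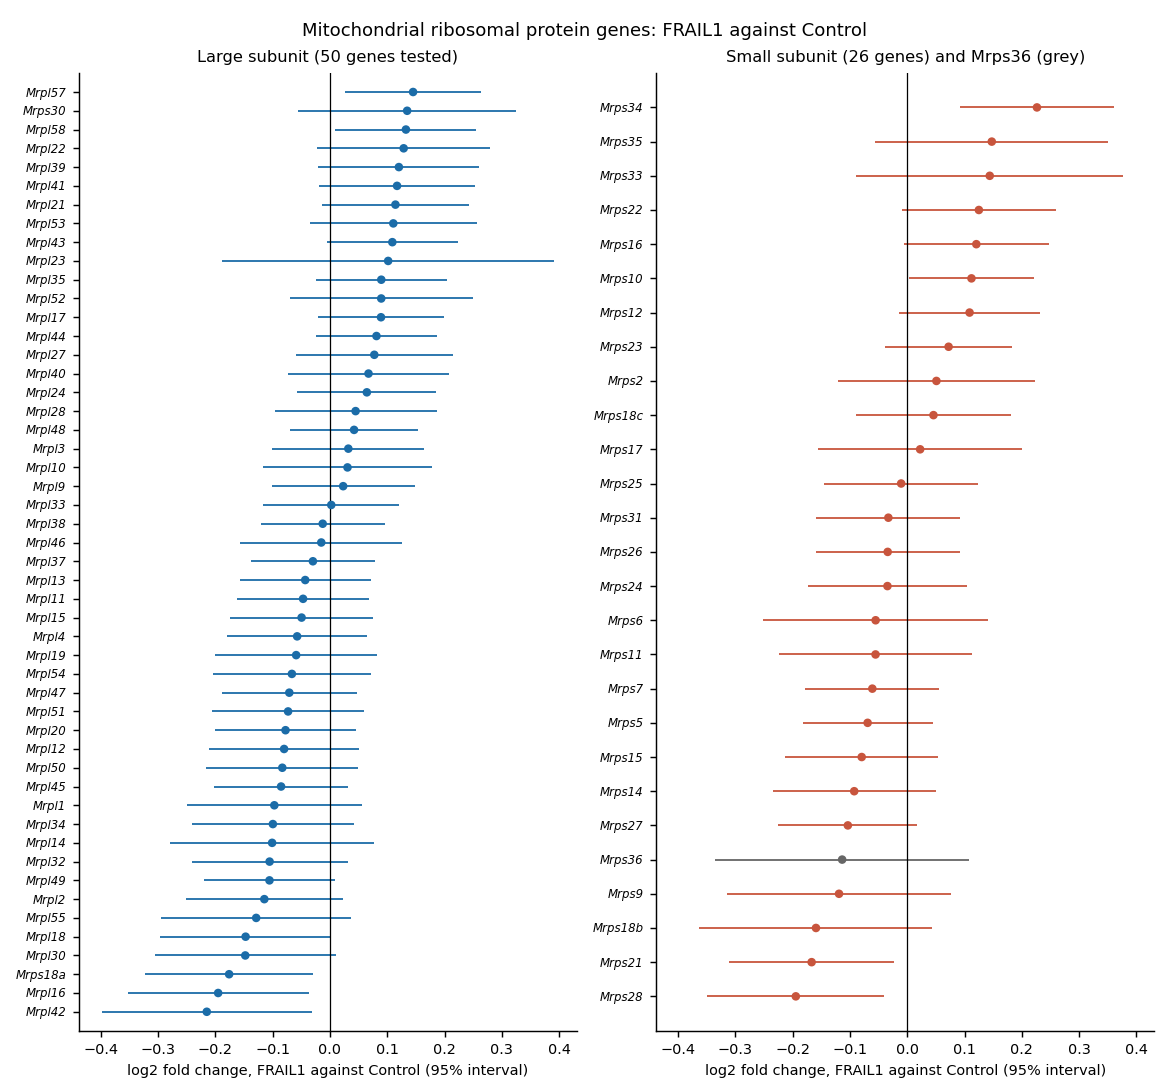
Log2 fold change of *FRAIL1* against Control muscles (6 against 6) for each of the 77 tested genes, with 95% intervals as lines, for the large subunit (left, blue) and the small subunit with *Mrps36* in grey (right). Values lie between -0.21 (*Mrpl42*) and 0.23 (*Mrps34*), on both sides of 0 in each subunit.

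Both subunits had similar median log2 fold changes. The median log2 fold change was -0.02 in the 50 tested large-subunit genes, with 23 above and 27 below 0, and -0.03 in the 26 small-subunit genes, with 11 above and 15 below 0. Summed large-subunit genes were 2267 ± 86.8 CPM in Control and 2205 ± 104 CPM in *FRAIL1* muscles, and summed small-subunit genes were 891 ± 35.5 and 887 ± 39.7 CPM (SD, n = 6 each). The ratio of large- to small-subunit CPM was 2.52 to 2.58 (median 2.54) in Control and 2.43 to 2.53 (median 2.48) in *FRAIL1* muscles, and the groups overlapped. In mice 1 to 6 this ratio was 2.58, 2.58, 2.52, 2.54, 2.52 and 2.53 in Control muscles. The *FRAIL1* muscles of mice 1 to 6 gave 2.47, 2.49, 2.53, 2.52, 2.48 and 2.43, lower in every mouse but mouse 3. This difference was not tested. The 45 tested members with a bacterial counterpart had a median log2 fold change of -0.06 (18 above and 27 below 0), and the 31 found only in mitochondria one of 0.04 (16 above and 15 below 0). In the 49 tested members without a copy or an overlap over 10% the median was -0.03.

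*Mrps34* encodes a small-subunit protein that exists only in mitochondria and that stabilizes the small ribosomal RNA. It measured 83.0, 80.1, 83.8, 75.3, 93.4 and 82.1 CPM in Control muscles 1 to 6, and 104, 89.7, 95.5, 92.2, 93.5 and 107 CPM in *FRAIL1* muscles 1 to 6. The *FRAIL1* muscle was the higher one in 6 of 6 mice, in mouse 5 by very little, and the groups overlapped at Control muscle 5. The means were 83.0 ± 5.93 and 97.0 ± 6.99 CPM (SD, n = 6 each), a log2 fold change of 0.23 (SE 0.0635, 95% interval 0.09 to 0.36, adjusted p = 0.0479, Benjamini-Hochberg adjustment, edgeR). It passed in 14 of 24 alternatives, with adjusted p-values from 0.00240 to 0.102, and in 4 of the 12 that leave out 1 muscle. Leaving out any Control muscle other than 5, or *FRAIL1* muscle 1, 4 or 6, gave an adjusted p of 0.0684 or more.

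The GENCODE gene *Mrps34* (chr17:24895116-24897502, plus strand, mm10) has 2064 bases of exons, of which 77.8% overlap exons of *Mapk8ip3* on the opposite strand. RefSeq ends the gene earlier, at 24896289, and within its bounds 57.8% of the exon bases overlap. *Mapk8ip3* had a log2 fold change of 0.01 (SE 0.0483, adjusted p = 0.928 by the same test). Without a stated strand setting, reads of the 2 genes cannot be told apart where they overlap.

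Among other members with the largest positive values, *Mrpl57*, a large-subunit gene found only in mitochondria, measured 30.3 to 35.1 CPM in Control (median 33.1) and 33.5 to 38.2 CPM in *FRAIL1* muscles (median 36.7). It was higher in 6 of 6 mice, with a log2 fold change of 0.15 (SE 0.0557). The adjusted p was 0.111 by the edgeR test and 0.0723 with the mouse as a block. *Mrps30*, placed in the large subunit in spite of its name, measured 26.97 to 39.8 CPM in Control (median 33.2) and 32.1 to 40.7 CPM in *FRAIL1* muscles (median 37.3). It too was higher in 6 of 6 mice, but the spread between mice was larger than the difference (log2 fold change 0.13, SE 0.0895, adjusted p = 0.344). With the mouse as a block its adjusted p was 0.0999. The small-subunit genes *Mrps35* and *Mrps33* had log2 fold changes of 0.15 (SE 0.0955, adjusted p = 0.331) and 0.14 (SE 0.110, adjusted p = 0.412).

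*Mrpl16*, the large-subunit counterpart of bacterial L16, measured 41.6, 46.2, 45.2, 46.1, 44.2 and 45.9 CPM in Control muscles 1 to 6, and 35.1, 40.7, 44.5, 41.4, 31.7 and 41.6 CPM in *FRAIL1* muscles 1 to 6. It was lower in the *FRAIL1* muscle in 6 of 6 mice, most in mouse 5, and the groups overlapped. The log2 fold change was -0.20 (SE 0.0743, 95% interval -0.35 to -0.04) with an adjusted p of 0.108 by the edgeR test and of 0.0472 with the mouse as a block. With both muscles numbered 5 left out it did not pass, with or without the block.

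*Mrpl42*, a large-subunit gene found only in mitochondria, had the highest CPM of all members. It ranged from 149 to 173 CPM in Control (median 168) and from 113 to 170 CPM in *FRAIL1* muscles (median 148), with lower values in 5 of 6 mice. Its log2 fold change was -0.21 (SE 0.0863, adjusted p = 0.124, edgeR). Without *FRAIL1* muscle 3, the highest of its group, the adjusted p was 0.0405 and the log2 fold change -0.27.

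The small-subunit gene *Mrps28* measured 45.5 to 56.4 CPM in Control (median 49.0) and 36.2 to 48.3 CPM in *FRAIL1* muscles (median 45.0), with a log2 fold change of -0.19 (SE 0.0726, adjusted p = 0.103, edgeR). *Mrps21* measured 66.8 to 81.6 CPM in Control (median 73.6) and 58.5 to 71.8 CPM in *FRAIL1* muscles (median 66.0), with a log2 fold change of -0.17 (SE 0.0676, adjusted p = 0.127). Each was lower in 5 of 6 mice, and in each the groups overlapped. Other abundant members gave log2 fold changes of -0.15 for *Mrpl18* (lower in 6 of 6 mice, adjusted p = 0.186), -0.11 for *Mrpl2* (adjusted p = 0.262) and -0.10 for *Mrpl14* (adjusted p = 0.455, edgeR). Of the low ones *Mrpl23* and *Mrps17* gave 0.10 (adjusted p = 0.662) and 0.02 (adjusted p = 0.892).

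**Figure D3:**
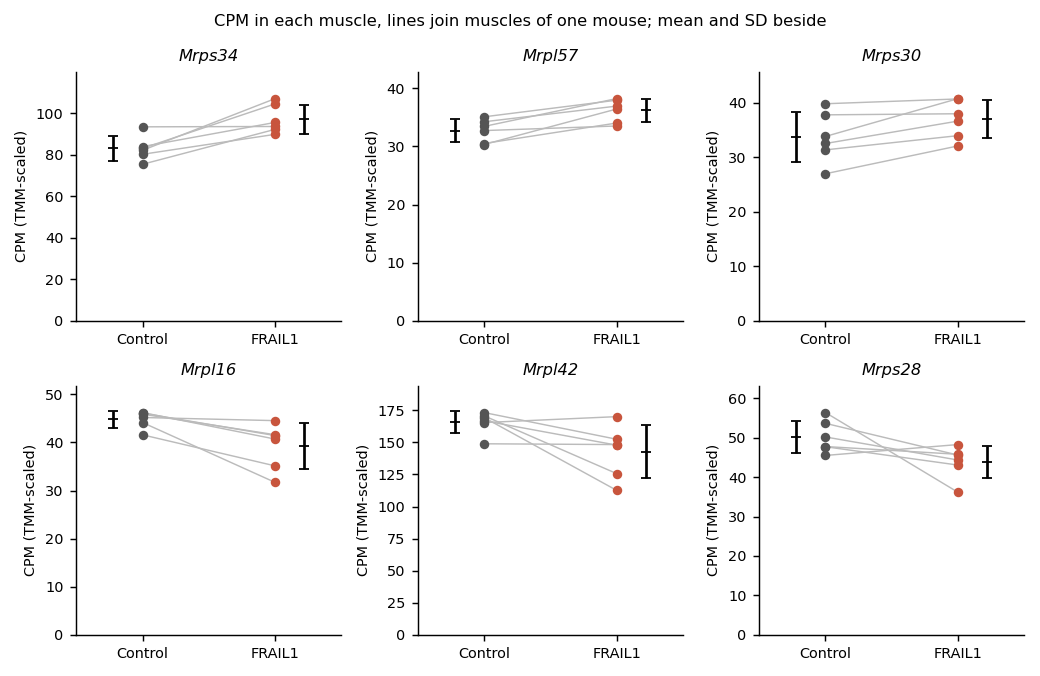
CPM of 6 members in each muscle, with grey points for Control and red points for *FRAIL1* muscles, lines that join the muscles of 1 mouse, and the mean with SD (n = 6) beside each group. In *Mrps34*, *Mrpl57* and *Mrps30* all 6 lines rise and in *Mrpl16* all 6 fall, while the ranges of the groups overlap in every panel.

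Mammals have a trio of paralogs of bacterial ribosomal protein S18. *Mrps18c* takes the place of S18 in the small subunit, *Mrps18b* another place in the small subunit, and *Mrps18a* lies in the large subunit. Per kilobase of exons *Mrps18c* was the highest in Control muscles, with 25.01 CPM per kilobase, followed by *Mrps18a* with 17.4 and *Mrps18b* with 4.99. In CPM *Mrps18a* measured 58.8 to 68.7, *Mrps18c* 24.2 to 29.3 and *Mrps18b* 8.71 to 12.2 in these muscles. In *FRAIL1* muscles *Mrps18a* measured 46.9 to 61.8 CPM, *Mrps18c* 24.6 to 29.6 CPM and *Mrps18b* 7.85 to 10.4 CPM. The log2 fold changes were -0.18 (SE 0.0690, adjusted p = 0.117) for *Mrps18a*, -0.16 (SE 0.0955, adjusted p = 0.292) for *Mrps18b* and 0.05 (SE 0.0636, adjusted p = 0.675, edgeR) for *Mrps18c*. None passed, and differences between the paralogs were not tested. The exons of *Mrps18b* and *Mrps18c* overlap another gene over 30.5% and 23.2% of their length. *Mrps18b* also has a copy, *Gm13552*, over 417 bases, which can take uniquely mapped reads from it.

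Within mice the members moved both ways. The median difference in log2 CPM between the *FRAIL1* and the Control muscle was 0.04, -0.09, 0.09, 0.08, -0.10 and -0.09 in mice 1 to 6, so that it was positive in 3 of 6. The summed members measured 2983 to 3341 CPM in Control (3170 ± 123, SD, n = 6) and 2916 to 3287 CPM in *FRAIL1* muscles (3104 ± 143, SD, n = 6), and the groups overlapped almost entirely.

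**Figure D4:**
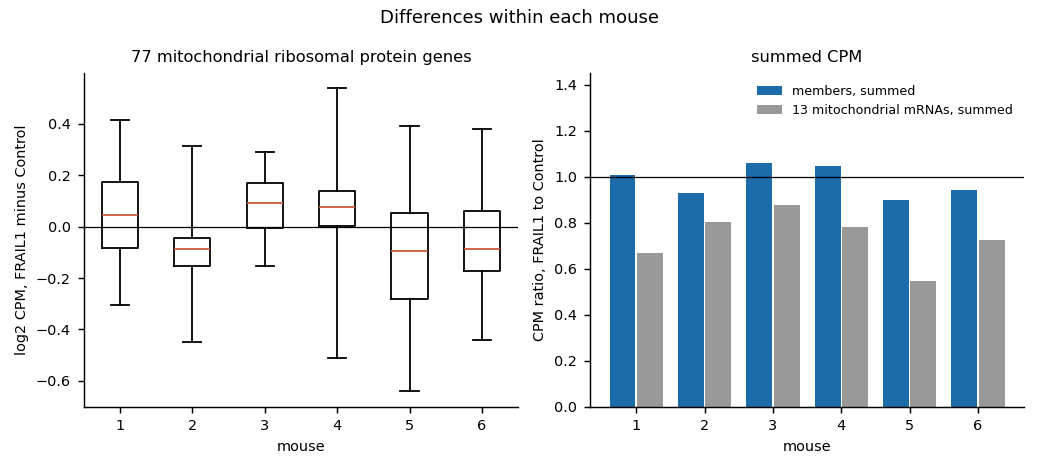
Left: differences in log2 CPM between the *FRAIL1* and the Control muscle of each mouse for the 77 tested members (box: quartiles, red line: median, whiskers: full range), with medians above 0 in mice 1, 3 and 4 and below 0 in mice 2, 5 and 6. Right: ratio of summed CPM in the *FRAIL1* to that in the Control muscle, from 0.897 to 1.06 for the members (blue) and from 0.548 to 0.877 for the 13 mRNAs of the mitochondrial genome (grey).

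The mRNAs that this ribosome translates gave lower values in the same libraries. Summed over the 13 protein-coding genes of the mitochondrial genome, Control muscles measured 92035 to 114454 CPM and *FRAIL1* muscles 50397 to 96002 CPM, and the sum was lower in the *FRAIL1* muscle in 6 of 6 mice, with ratios from 0.548 to 0.877. The mean log2 difference of the 13, which weights them equally, was negative in 5 of 6 mice and 0.0069 in the other. The log2 fold changes of all 13 were negative (median -0.45, and -0.39 without both muscles numbered 5). None passed the edgeR quasi-likelihood test with Benjamini-Hochberg adjustment, 12 had an unadjusted p below 0.05, and 7 passed with the mouse as a block. *COX1*, a catalytic subunit of cytochrome c oxidase, measured 37062 to 45278 CPM in Control and 20475 to 38605 CPM in *FRAIL1* muscles (log2 fold change -0.43, SE 0.127, adjusted p = 0.0553, and 0.0153 with the block). *ND2*, a subunit of complex I, had a log2 fold change of -0.53 (SE 0.153, adjusted p = 0.0536, and 0.0100 with the block).

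The RNAs of the mitochondrial ribosome were counted only as far as poly(A) selection kept them. *mt-Rnr1*, the small ribosomal RNA, measured 1407 to 1795 CPM in Control and 1535 to 1961 CPM in *FRAIL1* muscles (log2 fold change 0.14, SE 0.0826, adjusted p = 0.270). *mt-Rnr2*, the large one, measured 3097 to 4186 CPM in Control and 2758 to 3759 CPM after *FRAIL1*, with the lower value in the *FRAIL1* leg of 6 of 6 mice (log2 fold change -0.22, SE 0.0985, adjusted p = 0.169, edgeR). Neither passed, and in both the groups overlapped.

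Other proteins of mitochondrial translation were read from lists of genes. Of 5 further subunits of the ribosome with other symbols, 1 was lower, *Chchd1*, which encodes a small-subunit protein. It measured 34.6 to 38.7 CPM in Control (median 36.6) and 27.4 to 34.2 CPM in *FRAIL1* muscles (median 31.2), without overlap between the groups and with the same direction in 6 of 6 mice (log2 fold change -0.24, SE 0.0597, adjusted p = 0.0324, edgeR). It passed in 15 of 24 alternatives. Leaving out both muscles numbered 5 gave an adjusted p of 0.0546, and leaving out Control muscle 1, 2, 3, 5 or 6 or *FRAIL1* muscle 1 or 6 gave 0.0502 to 0.0660.

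Of 25 genes for assembly of the ribosome and modification of its RNA (median log2 fold change -0.04), 1 was higher and 1 lower. *Mterf4*, which acts with an RNA methyltransferase in assembly of the large subunit, measured 10.8 to 12.8 CPM in Control and 13.2 to 16.5 CPM in *FRAIL1* muscles, without overlap (log2 fold change 0.26, SE 0.0724, adjusted p = 0.0445, edgeR). Leaving out both muscles numbered 5 gave an adjusted p of 0.0885, and leaving out any 1 muscle other than *FRAIL1* muscle 3 or 6 gave 0.0538 to 0.0909. *Rcc1l*, an exchange factor that takes part in assembly, measured 28.02 to 35.5 CPM in Control and 24.0 to 28.8 CPM in *FRAIL1* muscles (log2 fold change -0.25, SE 0.0633, adjusted p = 0.0347, and 0.0690 without both muscles numbered 5). Without Control muscle 1, 2, 4, 5 or 6 or *FRAIL1* muscle 1 or 4 its adjusted p was 0.0563 to 0.0721. With the mouse as a block *Mettl17*, which acts on the small subunit, and *Fastkd2*, an RNA-binding protein of the large subunit's assembly, were also lower (log2 fold changes -0.23 and -0.24, adjusted p = 0.0378 and 0.0394).

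None of 16 tested translation factors (median log2 fold change -0.06), 20 genes of mitochondrial aminoacyl-tRNA synthesis (median -0.05) or 10 transcription regulators tied to these genes (median -0.04) passed the edgeR test, with 3 unadjusted p-values below 0.05 in each list. In this order, 11 of 16, 15 of 20 and 6 of 10 genes had log2 fold changes below 0. The mean difference of each list was positive in 1, 0 and 1 of 6 mice, and these directions were not tested. With the block 1 gene of these lists passed, *Gatc*, a subunit of the enzyme that completes glutaminyl-tRNA, which was lower (log2 fold change -0.22, adjusted p = 0.0418).

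Members were set beside 2 other groups of genes whose products form large complexes. The 36 tested nuclear genes of complex I subunits had a median log2 fold change of -0.10, with 33 of 36 below 0, and none passed (7 unadjusted p-values below 0.05). Their median was -0.05 without both muscles numbered 5, and their mean difference was positive in 3 of 6 mice. The 81 tested genes of cytosolic ribosomal proteins had a median of 0.11, with 69 above 0, and 1 was higher (10 higher and 1 lower with the block). No test compared these groups with the members.

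**Figure D5:**
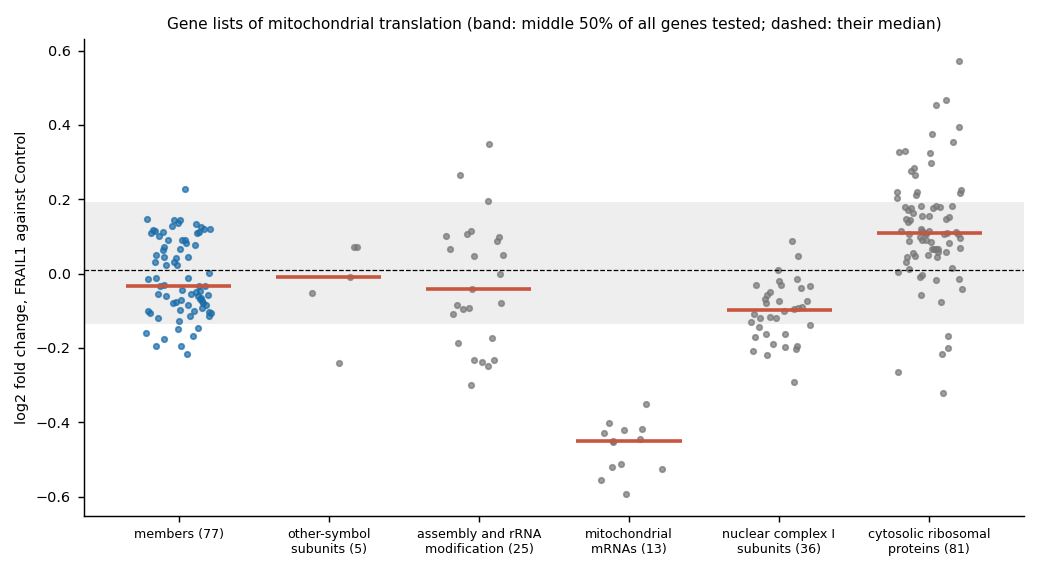
Log2 fold change of *FRAIL1* against Control muscles for single genes (points) of each list, with the list's median as a red line, the median of all genes as a dashed line and the middle 50% of all genes as a grey band. Medians run from -0.45 in the 13 mitochondrial mRNAs to 0.11 in the cytosolic ribosomal protein genes, with the members (blue) at -0.03.

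Members also varied together between muscles to some degree. After the group mean was taken from each of the 12 muscles, the median Pearson correlation between log2 CPM of 2 members was 0.30 over 2926 pairs, with 78.6% of pairs positive, and it was 0.00 between a member and a gene that is none. It was 0.31 within the large subunit, 0.22 within the small subunit and 0.29 between a large- and a small-subunit gene. For comparison, it was 0.74 among nuclear complex I genes, 0.45 among cytosolic ribosomal protein genes, 0.45 between a member and a complex I gene and 0.15 between a member and a cytosolic ribosomal protein gene. The values share the same 12 libraries and their scaling. Against the mean of the other members, *Mrpl2* followed most closely (r = 0.93), while *Mrps33*, *Mrps17* and *Mrps2* had negative values (-0.28, -0.20 and -0.16).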

How the data were processed

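Per the labels and the methods of the study, poly(A)+ RNA was sequenced in 150-base pairs on a NovaSeq, and the authors trimmed reads with Trimmomatic, mapped them to mm10 with STAR 2.7.8a and deposited raw counts of uniquely mapped reads per gene made with featureCounts 2.0.1. The annotation and strand setting are not given in the sources used here. Of 27179 Gene IDs, 25275 matched RefSeq (GRCm38.p6), and the others held 0.280% of counts. Gene coordinates, exons and exon lengths are from GENCODE M21 and promoters from RefSeq.

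Counts were filtered with filterByExpr, scaled with TMM (factors 0.935 to 0.983 in Control and 0.965 to 1.19 in *FRAIL1* muscles), and fitted without a block in edgeR 4.0.16 (R 4.3.3; robust quasi-likelihood test), and an adjusted p (Benjamini-Hochberg) under 0.05 counted as a call. The fit was tested on simulated data with 200 changed genes. It recovered 82% of 2-fold and 41% of 1.41-fold changes, with 9 false among 132 calls, and smaller changes were not simulated. The changed genes were drawn from all genes past the filter, so these shares do not describe the members, whose standard errors were smaller. Muscles were simulated without an effect of the mouse. Lists are described without a test. At these depths counting error is small for the abundant members, and errors are mostly the spread between muscles. In low members such as *Mrpl23*, with as few as 87 counts in a muscle, counting error also adds to the spread. No pair of libraries agreed within counting noise (chi-square per degree of freedom 14.5 or more). Alternatives used limma 3.58.1, DESeq2 1.42.0, other scalings and filters, and left-out muscles. Copies were searched with BLAST 2.17.0.

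The design gives both legs of each mouse, and numbers 1 to 6 in both groups were taken to mark the mouse. Deviations from group means correlated by 0.254, 0.162, 0.282, 0.263, 0.0547 and 0.185 between muscles of 1 number, by 0.200 on average against -0.0400 between different numbers, and of 720 pairings 1, the numbering, was as high. Control muscle 5 correlated most with *FRAIL1* muscle 1, and each other Control muscle with the *FRAIL1* muscle of its own number. The pairing is thus least certain for mouse 5.

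Members and lists were chosen with earlier results of these data known. Genes named with values are every member that passed with or without the block, the 5 highest and 5 lowest log2 fold changes, the 5 highest and 5 lowest levels per kilobase, members not tested, the *Mrps18* paralogs and, of the lists, genes past the threshold and up to 4 others by size of change. *Mrpl46*, *Mrpl51*, *Mrps11*, *Mrps2*, *Mrps36*, *Mapk8ip3*, *COX1* and the ribosomal RNAs, and the place of *Mrps18a* among proteins found only in mitochondria, were chosen after their values were seen.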

Additional observations from a re-analysis of the deposited data

Results flagged for a closer look

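A sample was set apart from its group of 6 where its gap to the next value exceeded Dixon's 95% critical value, as a share of the range, which chance gives in about 1 in 20 groups, and 72 groups were examined. *Mrpl42* measured 149 CPM in Control muscle 4 and 165 to 173 CPM in the other Control muscles. *Mrpl18* measured 91.2 CPM in Control muscle 6 and 78.6 to 81.7 CPM in the others. *mt-Rnr2* measured 3097 CPM in Control muscle 5 and 3820 to 4186 CPM in the others.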

How the results depend on the processing

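One member, *Mrps34*, passed the edgeR test, and the count was 2 with the replicate block, 0 with DESeq2's size factors and 0 without a filter. Over all genes 974 passed, and 2186 did with the replicate block, 1756 with limma voom and 2196 with DESeq2's Wald test. Leaving out 1 muscle gave 364 to 2110 genes and 0 to 3 members, and each muscle but *FRAIL1* muscle 5 moved the count of genes by more than 1.5 times. *FRAIL1* muscle 3 raised both counts most when left out, with *Mrpl16*, *Mrpl42* and *Mrps34* called, and *FRAIL1* muscle 1 lowered the count of genes most. Leaving out both muscles numbered 5 with the replicate block, chosen after seeing the data, gave 2305 genes. The block changed no other member's call than that of *Mrpl16*. Scaling to library size alone, also chosen after seeing the data, gave 2627 genes and 19 members, medians of 0.11 for all members, 0.12 for the large and 0.11 for the small subunit, and a ratio of summed members of 1.08 against 0.979 with TMM. With it *Mrpl14*, *Mrpl2*, *Mrpl46* and *Mrps11* had log2 fold changes of 0.0406, 0.0296, 0.13 and 0.0897. In the other 23 alternatives the members' median lay between -0.05 and -0.01. Leaving out 1 muscle gave -0.04 to -0.01 for the large and -0.05 to -0.01 for the small subunit, and ratios of 0.967 to 0.990. It turned values near 0, which ranged from -0.0157 to 0.0603 in *Mrps17*, -0.0500 to 0.0198 in *Mrpl46* and -0.0134 to 0.0235 in *Mapk8ip3*. The cause was not tested, and fewer samples were fitted where a muscle was left out. Depth can limit the lowest tested members, such as *Mrpl23*, and *Mrpl36* was below the filter.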
